A study of Mus musculus with 6 samples.

Results

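Schwann cells are the glia of peripheral nerves, and those that wrap larger axons build myelin, the layered membrane that insulates the axon. To describe the transcripts of these cells in RPE/choroid, the retinal pigment epithelium (RPE) together with the vascular layer beneath it, 8 genes of myelin and of Schwann cells of the ciliary nerves were followed: Mbp, Pmp22, Mag, Prx, Mal, Sox10, Egr2 and Ncmap. They were chosen by name, with earlier results of these data known. Of the 8, 7 matched 1 of the 33924 rows of the deposited table by their current symbol. Ncmap was found under A330049M08Rik, an older symbol that RefSeq gives to Ncmap alone.

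In compact myelin, adhesive and lipid-binding membrane proteins such as Pmp22 and Mbp hold successive turns of the Schwann cell membrane together. Other proteins face the axon or the outer basal lamina, and the transcription factors Sox10 and Egr2 switch the myelin genes on. The ciliary nerves cross the choroid on their way to the ciliary body and iris, and carry myelinated and unmyelinated axons. Several of these genes are also active outside Schwann cells. Sox10 is made by melanocytes and oligodendrocytes, Pmp22 by fibroblasts and epithelia, Mal by epithelia and T cells, Mbp and Mag by oligodendrocytes, Prx by endothelial cells and Egr2 by macrophages.

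The tissue came from wild-type C57BL/6J mice, with 3 libraries from young animals (1 to 2 months by the labels) and 3 from aged ones (20 to 24 months in the titles, 22 to 24 in the time field), each from a pair of eyes. All were labelled male, whereas the study's methods mention males and females and a somewhat later age for the young group. RNA was depleted of ribosomal RNA and sequenced without poly(A) selection. The neural retina, the muscles and the optic nerve had been cut away before the pigmented layer was scraped off the sclera.

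For each gene the table gives 1 authors' mean over all 6 libraries, in normalized counts, and no value per library. The study gives read depth as an average over libraries only, and the depth of each library and the spread between mice were not analysed here. No SD, interval or test can therefore stand beside a level, the order and the groups of levels below are descriptions of these means only, and no young or aged level is given. The authors' own comparison of the ages was not used. The deposited means rose with transcript length. Over the 15120 protein-coding genes with an authors' mean of at least 10, the median was 223 normalized counts in the 10% with the shortest transcripts and 1175 in the 10% with the longest. They were therefore taken as not yet scaled by length, although the study's methods name TPM, a length-scaled unit of abundance, as a step on the way. Because genes differ in length, levels were compared between genes per kilobase (kb) of the longest annotated transcript.

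All 8 genes were listed above 0, and they fell into 4 high and 4 low ones. Per kb, Pmp22 stood at 1272 normalized counts, Mal at 1149, Sox10 at 399 and Mbp at 245. Prx followed at 41.7, Mag at 38.4, Ncmap at 30.8 and Egr2 at 20.8. The step between Mbp and Prx was 5.88-fold, and the whole range from Pmp22 to Egr2 was 61.1-fold. For comparison, the median of the 24913 genes that had a length and a mean above 0 was 46.1 per kb, so the high genes lay above it and the low genes below it. In all, the 8 genes held 0.0429% of all normalized counts, and 94.6% of their sum came from the 4 high genes.

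**Figure D1:**
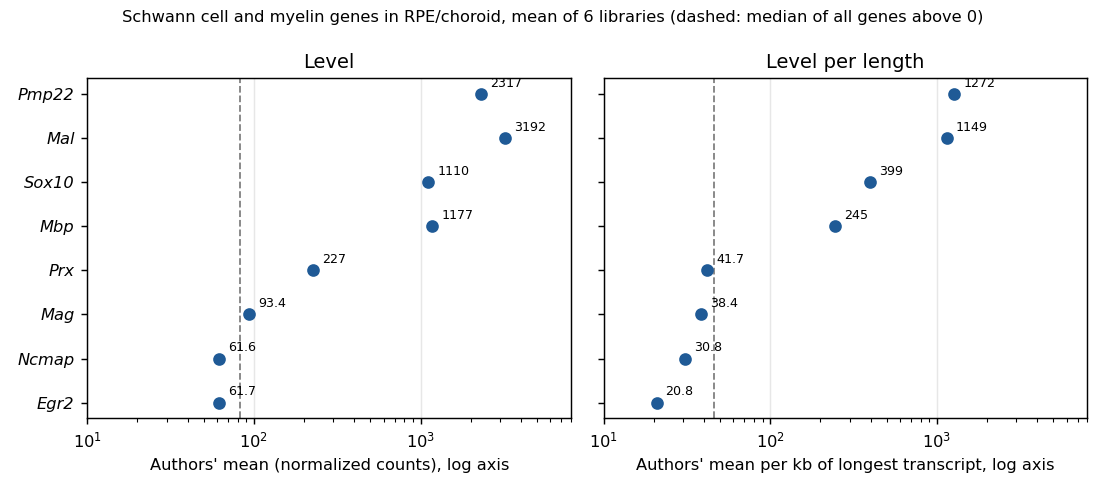
Authors' mean over the 6 libraries for each of the 8 genes, in normalized counts (left) and per kb of the longest transcript (right), on log axes with 1 point per gene and the median of all genes above 0 as a dashed line. Pmp22, Mal, Sox10 and Mbp lie at 245 to 1272 per kb and the other 4 genes at 20.8 to 41.7, below the dashed line at 46.1.

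Pmp22, a tetraspan protein of compact myelin whose gene dosage is critical for peripheral nerve, had an authors' mean of 2317 normalized counts. Among genes above 0, 93.3% were lower, and per kb 96.9% were lower. The gene lies on chromosome 11 at 63128982 to 63159547 of the mouse build GRCm38, on the plus strand, and GENCODE gives it 5 transcripts.

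Pmp22 is known to be read from an upstream promoter used mostly by myelinating Schwann cells and from a downstream promoter used more widely. The table holds 1 value per gene, so the 2317 normalized counts are not divided between starts. The RefSeq windows give 4 starts and tie none of them to a cell type. The windows of the most upstream start and of the next one are shown because they differ most in CG pairs among adjacent starts. They run from 250 bases before to 50 after each start that RefSeq gives, on the plus strand of GRCm38.p6, with every CG pair in capitals.

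Pmp22, most upstream start, chr11:63128732-63129031: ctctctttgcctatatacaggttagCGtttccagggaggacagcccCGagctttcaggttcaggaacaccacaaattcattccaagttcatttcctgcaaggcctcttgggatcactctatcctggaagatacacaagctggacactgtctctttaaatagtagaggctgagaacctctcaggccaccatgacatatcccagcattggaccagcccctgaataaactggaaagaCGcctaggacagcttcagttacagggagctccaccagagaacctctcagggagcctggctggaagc
Pmp22, next start, chr11:63131207-63131506: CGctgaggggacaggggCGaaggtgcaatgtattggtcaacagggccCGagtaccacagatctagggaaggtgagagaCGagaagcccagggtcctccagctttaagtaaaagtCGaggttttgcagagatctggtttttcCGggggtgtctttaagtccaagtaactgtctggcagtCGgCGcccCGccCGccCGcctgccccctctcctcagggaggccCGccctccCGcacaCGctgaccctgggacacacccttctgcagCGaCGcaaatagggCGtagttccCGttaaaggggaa

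The most upstream window held 3 CG pairs and 50.7% G and C. The next window held 18 CG pairs and 60.0%, against a median of 7 pairs and 52.7% over the 32851 RefSeq promoter windows of this length. The 2 remaining Pmp22 starts, farther downstream, held 20 and 30 pairs. The most upstream window was thus the poorest in CG pairs among the 4 starts of Pmp22.

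Mal, a proteolipid of myelin rafts and of apical membrane transport, had the highest authors' mean, 3192 normalized counts. This placed it above 95.9% of genes above 0, at rank 1099 of the table. Its gene is on chromosome 2 at 127633226 to 127656695, minus strand. With a transcript of 2778 bases, longer than the 1822 of Pmp22, it came second per kb, at a level 0.904 times that of Pmp22.

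Mbp encodes myelin basic protein, which fuses the cytoplasmic faces of the membrane. Its authors' mean was 1177 normalized counts, higher than 85.1% of genes above 0. Its locus also makes Golli transcripts, which immune and neural cells use, and the single value cannot be divided between Golli and classic Mbp.

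Ncmap, a small membrane protein of the non-compact parts of peripheral myelin, was much lower, with an authors' mean of 61.6 normalized counts under its older symbol. This level was above 47.6% of genes above 0. The gene is on chromosome 4 at 135369576 to 135398227, minus strand.

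The 2 genes of glial contact with the axon and the outer matrix were both among the 4 low ones per kb. Mag, the myelin-associated glycoprotein that faces the axon, had an authors' mean of 93.4 normalized counts, above 51.1% of genes above 0. Prx, the scaffold that links the Schwann cell to its basal lamina through dystroglycan, had 227, above 60.2% of them. Prx has the longest transcript of the 8, with 5433 bases, and once divided by length it stood only 1.09-fold above Mag. Both lie on chromosome 7, Prx at 27499324 to 27520214 on the plus strand and Mag at 30899176 to 30914873 on the minus strand. An antisense gene, Gm15541, shares exon bases with Prx on the other strand. It had 5.15 normalized counts, and the sources used here do not state whether strand was used in counting.

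Sox10, which gives neural crest cells their glial and melanocyte fates, and Egr2, which acts with it to start myelination, stood far apart. The authors' mean was 1109.5 normalized counts for Sox10 and 61.7 for Egr2, and per kb Sox10 was 19.2-fold higher. Per kb of the median transcript the difference was 8.78-fold. Sox10 is on chromosome 15 at 79154908 to 79165240 on the minus strand, and Egr2 on chromosome 10 at 67535475 to 67542188 on the plus strand. Beside Sox10, the 10 genes of the melanocyte list stood at 146 to 27072 per kb. Most of them, among them Dct, Tyrp1 and Pmel with the highest means, are pigment genes that the RPE makes as well. The lowest was Kit, a growth factor receptor of melanocytes that is no pigment gene, at 146. Beside Egr2, the 10 macrophage markers stood at 103 to 3633 per kb. The part of melanocytes and macrophages in the 2 levels was not tested. In bulk tissue, fewer cells of a type and less RNA in each cell cannot be told apart.

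**Figure D2:**
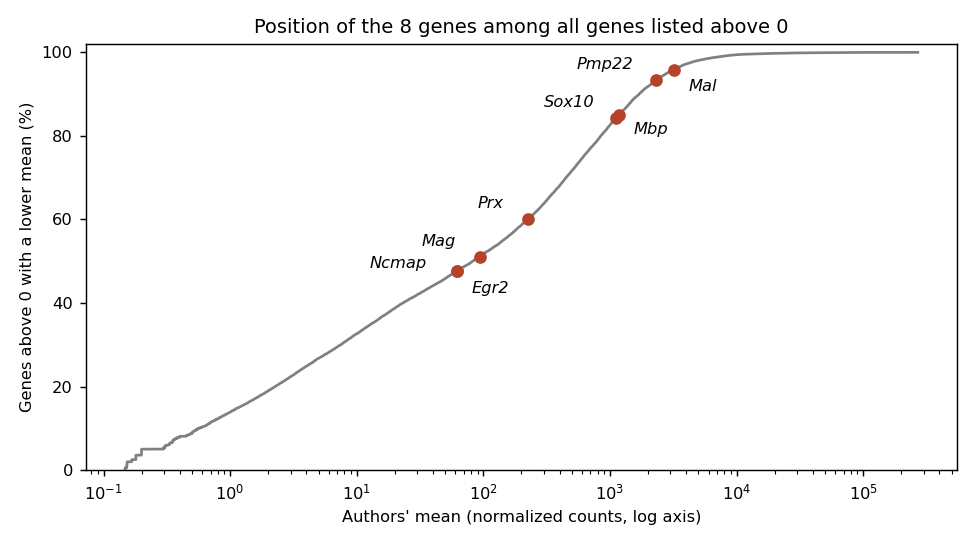
Each red point is 1 of the 8 genes on the curve of all 26681 genes above 0, with the authors' mean on a log x axis and the percent of genes with a lower mean on the y axis. Mal and Pmp22 are in the top 10%, Mbp and Sox10 follow at 85.1% and 84.2%, and Mag, Ncmap and Egr2 lie near the middle, at 47.6% to 51.1%.

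Since Sox10 and Egr2 act on myelin promoters, their core motifs were looked for in the RefSeq promoter windows of the members, of which 16 windows from 6 genes were used. Motifs were ACAAAG for SOX factors and GTGGGNG for EGR factors, on both strands. The SOX core was found in 2 of the 16 windows and in 18.7% of all windows, and the EGR core in 6 of 16 and in 31.6% of all. Both SOX matches were 1 and the same stretch upstream of Mag, whose windows overlap. The EGR matches in these 2 windows were likewise a single stretch. The Mag window is shown because it held both cores, which stand in capitals. It reads along the gene, on the minus strand of GRCm38.p6.

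Mag, chr7:30914814-30915113: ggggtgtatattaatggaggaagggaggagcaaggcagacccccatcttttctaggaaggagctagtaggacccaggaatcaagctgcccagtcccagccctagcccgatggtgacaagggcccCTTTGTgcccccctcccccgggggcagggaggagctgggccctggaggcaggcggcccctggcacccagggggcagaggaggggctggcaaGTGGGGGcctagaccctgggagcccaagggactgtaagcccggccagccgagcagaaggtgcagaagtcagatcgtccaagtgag

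The SOX core (here as its reverse complement) began at position -126 relative to the RefSeq start that lies within this window, and the EGR core at -35. Relative to the other Mag start whose window overlaps, they began at -67 and +25, so that the EGR core lay within the transcript. A match describes these letters only, and Mag was among the 4 low genes.

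The order within the high and within the low genes depended on the length used, but the division between them did not. Per kb of coding length Mal was first, at 6955 normalized counts, and Egr2 last at 43.7. Per kb of the median transcript Pmp22 was first at 3161, and the last was Prx at 48.6. Under these 2 lengths, under the longest transcript and with no length at all, the 4 high genes were the same. The gap between the fourth and the fifth gene ran from 4.56-fold to 8.78-fold.

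**Figure D3:**
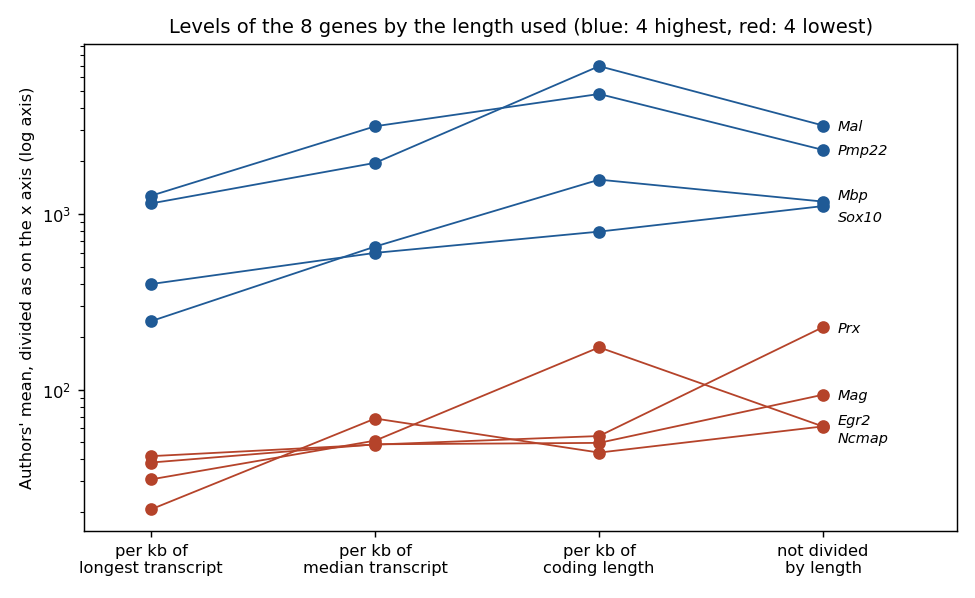
Authors' mean of each of the 8 genes on a log y axis, divided by 3 kinds of length or not divided, with 1 line per gene. The lines of Mal, Pmp22, Mbp and Sox10 (blue) stay above those of Prx, Mag, Egr2 and Ncmap (red) at all 4 positions, while lines of the same colour cross.

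Other genes of peripheral myelin were widely spread too. The 12 structural genes analysed, 6 of them members, had a median of 40.1 normalized counts per kb. Of these, 10 had an authors' mean of at least 10, and 9 lay above 82.1, the median of the authors' means above 0. Per kb, 5 lay above the corresponding median of 46.1. Most genes reach a mean of 10, as did 15120 of the 20888 rows matched to protein-coding genes. Cnp and Cadm4 stood at 254 and 334 per kb, against 245 for Mbp. With no length Mbp was the highest of these 3, with authors' means of 1177 for Mbp, 736 for Cnp and 722 for Cadm4, and it was also the highest per kb of coding length and of the median transcript. Drp2, a partner of Prx, had 24.5 per kb and the tight junction gene Cldn19 had 25.3. The lowest were the gap junction gene Gjb1 and the lipid carrier Pmp2, with authors' means of 7.64 and 6.21.

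Among 14 genes of transcriptional control, Sox10 ranked 4 per kb and Egr2 ranked 10. The repressor Zeb2 had an authors' mean of 4796 normalized counts, Id2 1917 and Nab1, a corepressor that binds Egr2, 1880. Pou3f1, which precedes Egr2 when Schwann cells begin to myelinate, had 18.2, and its relative Pou3f2 had 1.56. Of the other Egr2 relatives, Egr1 had 331 and Egr3 had 6.88. The list median was 61.5 per kb, between Sox10 and Egr2. Which cells made these RNAs was not tested.

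In a list of axon-glia signalling and matrix contact genes, 14 of 14 had an authors' mean of 10 or more. Over all protein-coding rows it was 15120 of 20888. The list median was 111 per kb. The highest were genes of contact with the basal lamina, which many other cells use. The laminin gene Lama2 led with 6235 normalized counts, before Dag1, the dystroglycan to which Prx connects, with 2473, and Itga6 with 2336. Per kb Itga6, at 542, stood above Dag1, at 437. Nrg1, whose protein is the axonal signal for myelin thickness, was the lowest at 18.8. For lipid synthesis, 11 of 12 genes were analysed, and Hmgcs1 was not analysed here. Their authors' means ran from 9133 normalized counts for Scd2 to 5.72 for Fa2h, which makes hydroxylated myelin lipids.

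Markers of non-myelinating and immature Schwann cells had a median of 108 per kb. With no length the endothelin receptor Ednrb was highest with an authors' mean of 12711 normalized counts, followed by S100b with 7957 and Ncam1 with 3492. Per kb S100b was first at 5362, above Ednrb at 3095. Ednrb, S100b and Ncam1 are also used by other cells. Artn, a growth factor of injured nerve, was lowest with 7.72. Peripheral axon genes, whose mRNA lies mostly in ganglia outside the eye wall, had a median of only 12.7 per kb. Nefl, Nefm and Nefh, the neurofilament genes, had authors' means of 1351, 176 and 170.4, while Scn10a had 0.200 and Slc18a3 was not analysed here.

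Oligodendrocytes myelinate the optic nerve and share Mbp, Mag, Mal and Sox10 with Schwann cells, so genes listed as oligodendrocyte markers were set beside the members. Of 13 such genes, 6 had an authors' mean of 10 or more, against 15120 of 20888 protein-coding rows. The median of the 13 was 3.41 per kb. Mog, on the surface of central myelin, had 11.7 per kb, and Mag was 3.29-fold above it. This fold was 1.85 per kb of coding length and 4.70 with no length. The fate genes Olig1 and Olig2 had authors' means of 4.45 and 1.67, Klk6 had 4.42, Opalin stood at 1.79 per kb, and Nkx2-2 was listed at 0. Hapln2 and Nkx6-2 were also under 10, at 3.93 and 6.51. Against these, Ermn had 6145, Myrf 1139.5, Cldn11 325, Mobp 166 and Gpr17 79.1. By the authors' mean, 4 of the 13 genes lay above the median of genes above 0, and these were Ermn, Myrf, Cldn11 and Mobp. The part of oligodendrocyte RNA in the levels of Mbp, Mag, Mal and Sox10 was not tested. Which cells made the RNA of the listed genes, among them Ermn and Myrf, was not tested either.

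Marker genes of the main cells of the tissue were mostly higher than the members. The median was 6179 per kb for 8 RPE genes, 2587 for 10 fibroblast genes, 1777 for the 10 genes of the melanocyte list, mostly shared with the RPE, and 665 for 10 endothelial genes. Rpe65, the retinoid isomerase of the RPE, was 20.4-fold above Mal per kb and 3.93-fold above it per kb of coding length. Genes of tissue that had been cut away were present too, with medians of 1836 for 10 rod photoreceptor genes and 6975 for 10 skeletal muscle genes. Pmp22 and Mal were above the endothelial median and that of 914 for 10 macrophage genes, and below the others named here. The place of both among these medians turned with the length used.

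**Figure D4:**
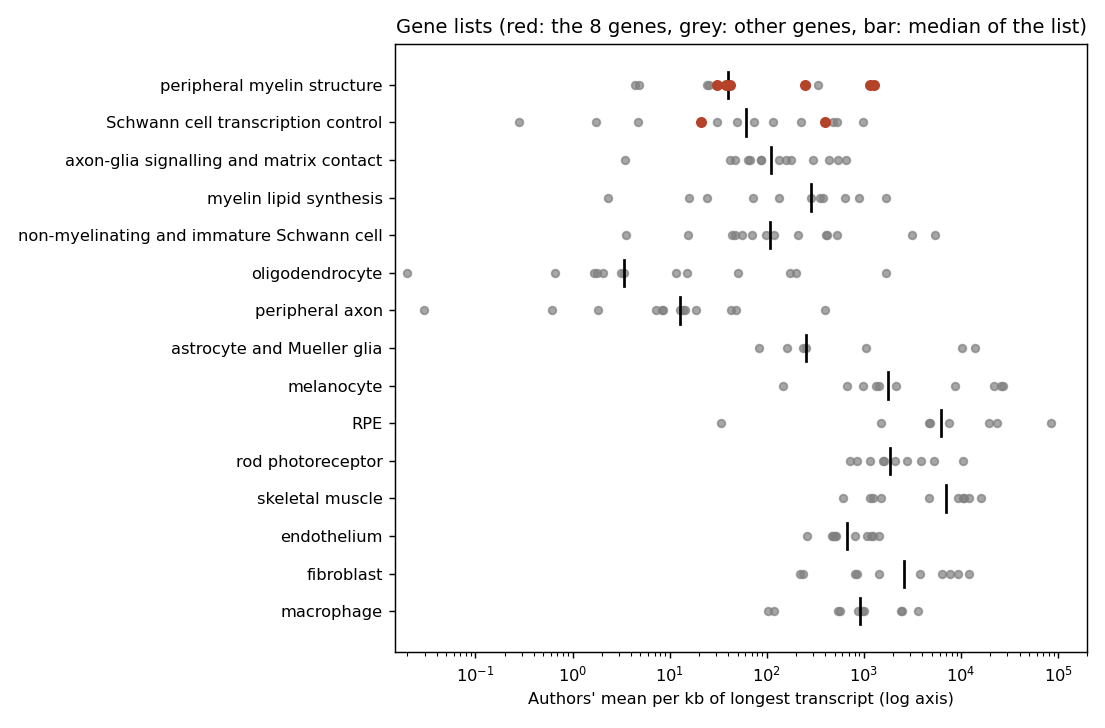
Authors' mean per kb of the longest transcript on a log x axis for the genes of 15 lists, with the 8 genes in red, other genes in grey and the list median as a bar. The whole peripheral myelin list spans 4.41 to 1272 (median 40.1), and its members 30.8 to 1272. The oligodendrocyte and axon lists have lower medians (3.41 and 12.7), with highest genes at 1691 and 400. The point at the far left of the oligodendrocyte row is Nkx2-2, listed at 0.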

How the data were processed

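RPE/choroid RNA from 3 young and 3 aged mice was sequenced after depletion of ribosomal RNA. Per the study's methods, the authors trimmed reads with BBDuk, mapped them with STAR to Ensembl transcripts of GRCm38, estimated abundances (TPM, a length-scaled unit) with Sailfish and turned them into normalized counts by the total count method. Sailfish shares reads that fit several transcripts among them. The deposited value, baseMean, is a normalized signal that the authors averaged over all 6 libraries. Columns with values of a single sample numbered 0. Its 5 other value columns hold the authors' DESeq2 comparison of the ages (fold change, SE, statistic, p and adjusted p) and were not used. The planned age test, which needs counts per library, was not run.

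Symbols were matched to GENCODE M21 (GRCm38), 28553 rows directly and 2426 through an older symbol unique in RefSeq, and levels were divided by the longest transcript (Python 3.11.15, pandas 2.3.3). Members and lists were chosen with earlier results of these data known. A few genes of the peripheral myelin and oligodendrocyte lists are not reported here and enter none of the counts or medians. Named are the 8 members and, per list, the 3 highest means, the lowest, and genes at 0 or not analysed; for peripheral myelin, transcription control and oligodendrocyte genes, any.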

Additional observations from a re-analysis of the deposited data

How the results depend on the processing

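Of the 7 genes matched by current symbol, 6 lay above the median of genes above 0 and 2 in the top 10%. The second count was 2 under every alternative run. The first was 7 against all genes in the table, and 4 against genes with an authors' mean of at least 10, against protein-coding genes and per kb. With Ncmap added, chosen after the data had been seen, both counts stayed at 6 and 2. At limits of 5, 20, 50 and 100 the number of peripheral myelin genes ran from 8 to 12, against 10. For oligodendrocyte genes it ran from 4 to 7, against 6. Without Ermn and Myrf, left out after their values had been seen, it was 4. Of the 8 members, 1 kept its place in the order by coding length, 2 with no length and 2 by the median transcript length, the last an alternative added once values were known. With other lengths, chosen after the data had been seen, the place of Pmp22 and Mal among list medians turned in 5 cases. Pmp22 went to 0.990 times the endothelial and 0.843 times the macrophage median with no length, and to 1.19 times the rod median per kb of the median transcript. Mal went to 1.41 times the fibroblast and 1.27 times the melanocyte median per kb of coding length. No paired analysis was possible because only means over all libraries were analysed. Fits without single replicates, with the replicate block, with other size factors or without a low-count filter were not run for the same reason. The limits that the depth of each library sets on low genes such as Egr2 were not analysed here.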
